A study of Mus musculus with 13 samples.

Results

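Interferon-stimulated genes were followed in plasma cells from mouse bone marrow, in healthy mice and in mouse models of multiple myeloma, in which these antibody-secreting cells turn malignant. The set was a list of 44 gene symbols, and all 44 were among the 22997 genes of the count table. A member was described in full where it had 10 or more counts in 2 or more of the 13 libraries, which 41 did; Ifit3, Mx2 and Rtp4 did not.

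RNA came from 50000 sorted cells per library (donor-derived cells in the recipients) that were CD138+, B220- and CD45.2+, all from mice of the C57/BL6 background; ages are not stated in the labels. WT was wild-type (3 libraries). V carried the Vκ*MYC transgene and IgG1-Cre (3 libraries). VQ carried Vκ*MYC, IgG1-Cre and the Cre-activated Nras LSL Q61R/+ allele, and was sampled in recipients of 3 transplanted tumour lines: D1 (2 libraries), D4 (1 library) and D5 (2 libraries). The other transplanted model, tVk12653, is a Vκ*MYC line that is also sampled in recipients (2 libraries), for which the labels name no Nras allele. Recipients of a line share a tumour, so for the comparison of VQ as a whole their counts were summed and the 3 lines were the replicates. The 2 tVk12653 libraries, also from recipients of a single line, were not summed and entered as separate replicates. Their spread is therefore that between recipients of the same tumour, unlike that of VQ. The labels do not say that libraries of WT or V came from separate mice, and p-values measure only the spread between these samples. IgG1-Cre acts in B cells that switch to IgG1. WT and V were not transplanted, so that the effect of the tumour and that of transplantation cannot be told apart.

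Interferons are secreted proteins that cells release on sensing viral or misplaced nucleic acid. Type I interferons bind the receptor made of Ifnar1 and Ifnar2, whose kinases Jak1 and Tyk2 phosphorylate factors such as Stat2. Stat2 and Irf9 are subunits of the complex ISGF3, which binds the interferon-stimulated response element (ISRE) in the promoters of its target genes, while interferon-γ works mainly through the GAS element. Plasma cells use some of the same factors in ordinary life, and several products of the pathway (Irf7, Stat2, Irf9, the RNA sensors) are themselves its targets.

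The ISRE was searched as GAAA, any 2 bases and GAAA again, on both strands of RefSeq promoters of the GRCm38.p6 assembly, each 300 bases long, from 250 before to 50 after a transcript start. Promoters were found for 34 of the 44 members. Of their 43 promoters 17 (39.5%) held the motif, against 3.44% of all 32851 promoters in the table; the GAS motif TTCNNNGAA was in 23.3% against 8.3%. A set of 6 windows is shown because their genes went different ways in the tumours: Rsad2, Oas3, Isg15, Gbp2, Bst2 and Gbp3, in that order, each read 5′ to 3′ along its gene with every base of an ISRE match, on either strand, in capitals. The windows are Rsad2 (chr12:26456533-26456592, minus strand), Oas3 (chr5:120777695-120777754, minus strand), Isg15 (chr4:156200859-156200918, minus strand), Gbp2 (chr3:142620573-142620632, plus strand), Bst2 (chr8:71537563-71537622, minus strand) and Gbp3 (chr3:142559956-142560015, plus strand).
Rsad2: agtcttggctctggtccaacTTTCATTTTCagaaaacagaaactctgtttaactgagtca
Oas3: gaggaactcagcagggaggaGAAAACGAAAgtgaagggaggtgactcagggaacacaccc
Isg15: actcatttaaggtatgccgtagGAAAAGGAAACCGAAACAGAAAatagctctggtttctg
Gbp2: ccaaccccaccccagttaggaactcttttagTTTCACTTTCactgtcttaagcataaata
Bst2: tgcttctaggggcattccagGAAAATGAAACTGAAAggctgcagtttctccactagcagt
Gbp3: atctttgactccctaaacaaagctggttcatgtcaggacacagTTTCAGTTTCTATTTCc
A match is a run of letters, and no binding was measured here. Overlapping matches, as in Isg15, Bst2 and Gbp3, were each counted.

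Total counts ran from 2096815 to 8512281 per library, so that the 3 counts used as a detection floor equal a scaled rate (CPM) of 0.326 to 1.48. All levels below are CPM after scaling with edgeR's TMM factors. Plasma-cell RNA was present in all groups, the summed level of 10 marker genes being 39724 to 73558 CPM in WT, 44532 to 65448 in V and 6412 to 14169.5 in the tumours. The fall of this sum was mostly in Jchain, the joining chain of secreted antibody (33543 to 64456 CPM in WT and 44.5 to 6739.5 in the tumours), while Irf4 and Xbp1 stood at 1511 to 2417 and 1329.5 to 3390.2 in the tumours. RNA of other marrow cells was not even between groups. The 15 neutrophil markers summed to 3587 to 9990.2 CPM in WT (highest in WT replicate 2), 1929 to 3906 in V, 414 to 1337 in D1, 95.7 in D4, 93.3 to 149.5 in D5 and 107 to 172 in tVk12653, with none of the 15 at 0 in any group. The 13 monocyte and macrophage markers summed to 577 to 1768 in WT, 569.5 to 1490.2 in V, 714 to 830.3 in D1, 1663 in D4 (Csf1r, Fcgr1, Ccr2 and Cx3cr1 at 0), 24.6 to 48.8 in D5 (Adgre1 at 0) and 1013 to 1379 in tVk12653 (Fcgr1, Cx3cr1 and C1qc at 0). Ly6c2 alone made up most of the sum in D1 (501 to 644 CPM), D4 (1541) and tVk12653 (877 to 1197). Of the 12 tested markers of this list 8 were lower and 2 higher than WT in D1. In D4, as in tVk12653, 9 were lower and 1 higher, and all 12 were lower in D5, so that the sums hide the fall of most of them. T and NK cell markers (9 of 10 in the table) ran from 50.3 to 77.4 CPM in WT to at most 5.11 in the tumours, and B cell markers from 616 to 939 to at most 215. The part of these cells in the results below was not tested, and fewer cells of a type cannot be told apart from less RNA per cell. Ddx3y, a Y-linked gene, stood at 47.9, 129 and 141 CPM in WT, at 0 in all 3 V libraries and at most 0.435 in the tumours. Xist, an X-linked RNA that silences the chromosome it comes from, had 1481, 2.58 and 3.98 CPM (WT), 2631, 1493 and 1881 (V) and 3.24 to 97.6 CPM (tumours). WT and V thus differed in these genes, WT replicate 1 held both, and the tumours were low in both, so that the sex of the tumour cells is not given by them.

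Over the 41 members the level relative to the WT mean differed between the tumours. On the log2(CPM + 1) scale, the median difference from the WT mean was 0.07, -0.02 and -0.13 in the WT libraries themselves, 0.46, 0.39 and -0.01 in V and -0.26 and -0.03 in D1. It was -1.24 (D4), -1.28 and -1.27 (D5) and -1.74 and -1.32 (tVk12653). The 2 D1 libraries thus lay near WT while D4, D5 and tVk12653 lay below. The number of the 41 members with no count at all was 0 or 1 in WT, 1 or 2 in V, 0 in both D1 libraries, 3 (D4), 5 and 2 (D5) and 6 and 3 (tVk12653). Per kilobase of exon, Bst2, Isg20 and Lgals3bp were the most abundant members (68.0, 67.6 and 60.5 CPM per kb over all 13 libraries), and Mx2 the least (0.142).

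**Figure D1:**
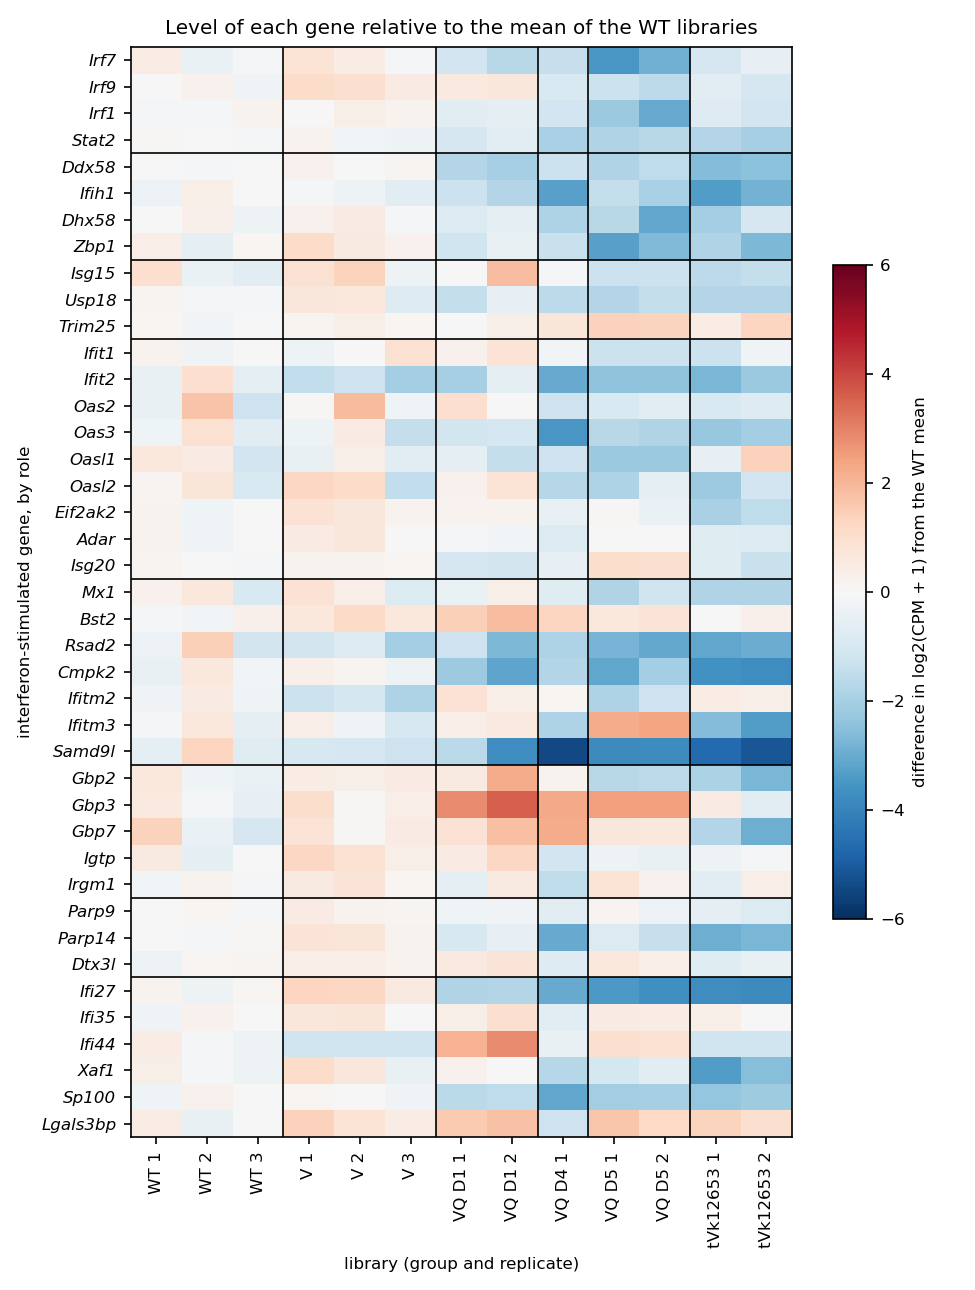
Heat map of the 41 members (vertical axis, grouped by role) in the 13 libraries (horizontal axis), coloured by the difference in log2(CPM + 1) from the mean of the 3 WT libraries. D4, D5 and tVk12653 are mostly blue (lower), with Bst2 and Gbp3 higher in all VQ lines and Trim25 in D4 and D5, while the 2 D1 libraries hold both colours.

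In VQ against WT, with the 3 lines as replicates, 10 of 41 tested members fell and 3 rose (edgeR's quasi-likelihood test, Benjamini-Hochberg adjusted over 11933 genes). Those that fell were the transcription factors Irf7, Irf1 and Stat2, the RNA sensors Ddx58 and Ifih1, the antiviral effectors Rsad2, Cmpk2 and Samd9l, and Ifi27 and Sp100; Trim25, Bst2 and Gbp3 rose. Changes are given as log2 fold changes ± SE. Among all genes tested 32.4% passed (17.3% higher and 15.1% lower), so the 13 of 41 is near the background, with more members lower than higher. The median log2 fold change was -0.51 over the members and 0.08 over all genes. With VQ and WT fitted alone 5 members were lower, and with 1 mean per group over 13 libraries 19 were. Here and in later refits the share of all genes called is not given unless printed. Such counts cannot be read as particular to the members. Without line D1 16 members were lower, and without line D4 7 were higher.

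In tVk12653 against WT 15 of 41 members fell and none rose, against 28.2% of all genes (12.6% higher and 15.7% lower). An unadjusted p under 0.05, in either direction, was found for 23 of 41 members and for 4829 of 11933 genes. Mx1, Usp18, Samd9l, Rsad2, Ifi27, Cmpk2, Xaf1, Ifih1, Parp14, Gbp7, Ddx58, Sp100, Zbp1, Stat2 and Eif2ak2 were those that fell. Both tVk12653 libraries share a tumour, so these calls are about this tumour and not about a kind of tumour. The median log2 fold change of the members was -2.27, or -1.76 with genes at 0 in a whole group set to their bound, and that of all genes -0.05. Only 2 tVk12653 libraries entered: without replicate 1 or 2 the count was 6 or 7, with the remaining library assumed to vary like the other groups. DESeq2, and the fit with no filter on low counts, each called 1 member higher, and with tVk12653 and WT fitted alone 2 were higher and 24 lower.

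In VQ against V, in which both arms carry the MYC transgene, 12 of 41 members were lower and 2 higher, against 28.0% of all genes (15.6% higher and 12.4% lower). Irf7, Irf1, Stat2, Ddx58, Ifih1, Dhx58, Zbp1, Cmpk2, Samd9l, Parp14, Ifi27 and Sp100 were lower and Gbp3 and Ifi44 higher. Ifi44 met the rule for the set through VQ libraries alone, which favours a rise there. The comparison shares the VQ lines with that against WT. With VQ and V fitted alone 5 members were lower and 1 higher, and without V replicate 1 or 2 the count of lower members was 5 or 7.

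Of the 4 transcription factors of the pathway 3 fell in VQ against WT and 1 in tVk12653. Of all genes 32.4% and 28.2% were called there (15.1% and 15.7% lower). Irf7, the factor that amplifies interferon production, had 47.9, 26.2 and 32.4 CPM (WT), 61.6, 47.3 and 32.8 (V), 15.1 and 10.3 (D1), 12.6 (D4), 2.12 and 3.83 (D5) and 16.4 and 23.9 (tVk12653). WT and V overlapped, every tumour library lay below every WT library, and D5 lay lowest. In VQ the log2 fold change was -1.92 ± 0.49 (adjusted p = 0.0146) against WT and -2.34 ± 0.49 (adjusted p = 0.00816) against V; in tVk12653 it was -0.82 ± 0.54 (adjusted p = 0.287). Stat2, a subunit of ISGF3, had 60.2, 56.4 and 55.2 CPM (WT), 66.1, 51.2 and 46.7 (V), 28.3 and 36.1 (D1), 14.2 (D4), 15.9 and 17.4 (D5) and 16.4 and 13.4 (tVk12653). No tumour library reached the lowest of WT or V, and the log2 fold change was -1.35 ± 0.32 (adjusted p = 0.0106) in VQ and -1.94 ± 0.38 (adjusted p = 0.00621) in tVk12653.

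Irf1, an activator of interferon-γ targets, had 116, 116 and 144 CPM (WT), 127, 159 and 145 (V), 78.3 and 83.1 (D1), 55.3 (D4), 26.2 and 14.6 (D5) and 72.8 and 56.5 (tVk12653). All 7 tumour libraries lay below WT and V, and the 2 D5 libraries lay below the other 5. The log2 fold change in VQ was -1.21 ± 0.39 (adjusted p = 0.0371) and in tVk12653 -0.96 ± 0.44 (adjusted p = 0.133). Irf9, the DNA-binding subunit of ISGF3, behaved differently between lines: it had 44.01, 52.7 and 38.1 CPM (WT), 98.1, 87.9 and 63.6 (V), 67.3 and 72.1 (D1), 23.0 (D4), 17.8 and 14.6 (D5) and 28.4 and 21.7 (tVk12653). The 2 D1 libraries lay above all 3 WT libraries and D4 and D5 below them, and VQ as a whole gave -0.23 ± 0.47 (adjusted p = 0.73) against WT. Line by line Irf9 rose in D1, 0.64 ± 0.20 (adjusted p = 0.0157), and fell in D4, -0.96 ± 0.27 (adjusted p = 0.0121), and D5, -1.47 ± 0.23 (adjusted p = 8.63e-05). Of these calls, in VQ against WT Irf7 was not called without WT replicate 1 (adjusted p = 0.0529). Irf1 was not called without WT replicate 1, 2 or 3 or V replicate 1, 2 or 3 or tVk12653 replicate 1 or line D4 (adjusted p = 0.0519 to 0.0996); the calls of Irf7, Irf1 and Stat2 were also lost with the 2 arms fitted alone (adjusted p = 0.0658, 0.129 and 0.0507). In tVk12653 against WT Stat2 was not called without tVk12653 replicate 2 (adjusted p = 0.0629). In VQ against V Irf1 was not called without V replicate 1, 2 or 3 (adjusted p = 0.0523 to 0.0684). There Stat2 was not called without V replicate 1 (adjusted p = 0.0594). In D1 against WT Irf9 was not called without WT replicate 3 or D1 replicate 2 (adjusted p = 0.062 to 0.0889).

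**Figure D2:**
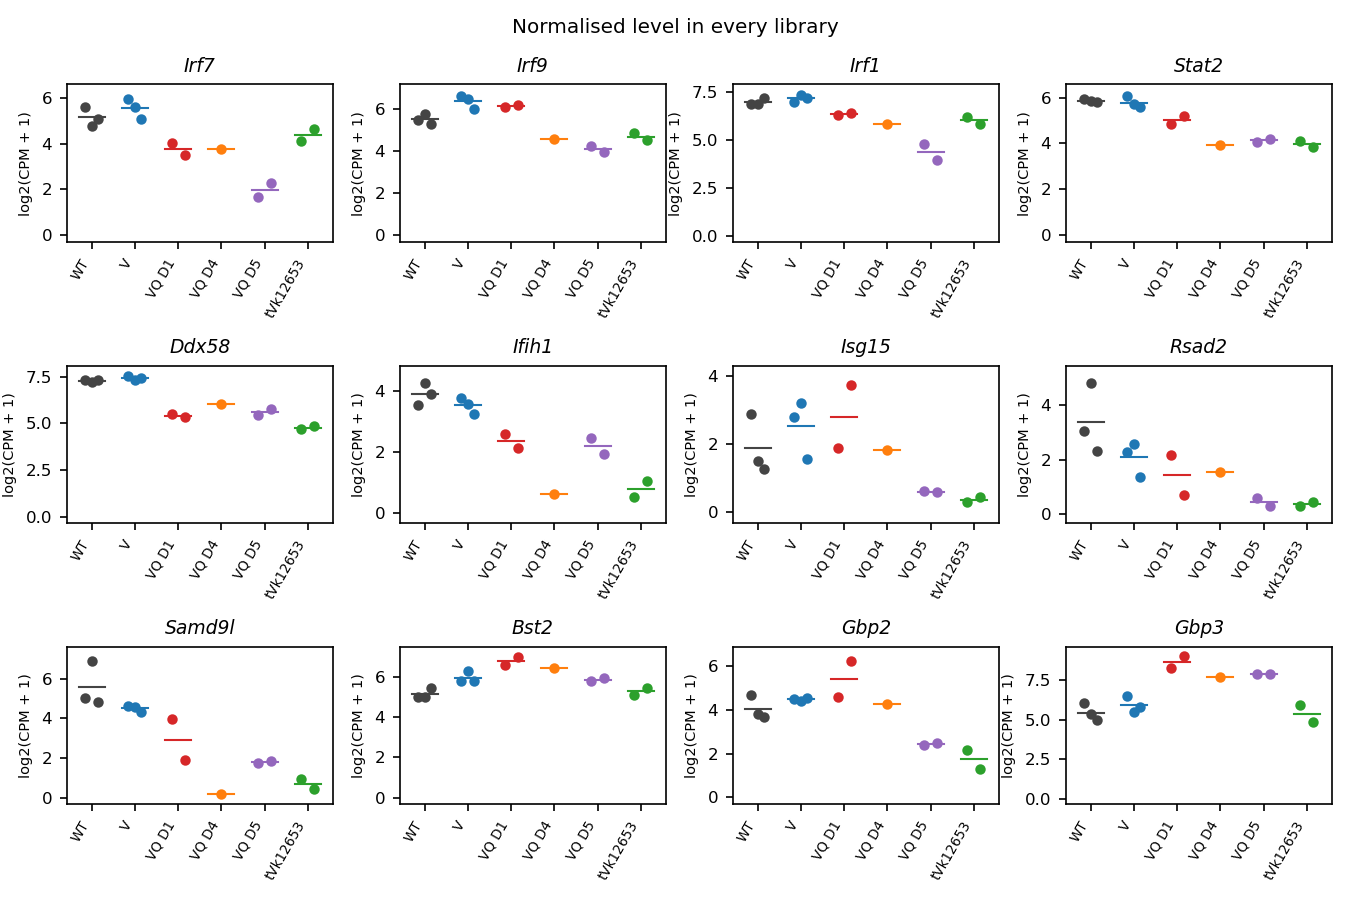
Levels of 12 members as log2(CPM + 1) (vertical axes, starting just below 0) in each library of the 6 groups (horizontal axes); points are libraries and bars group means. Ddx58 and Stat2 separate all tumour libraries from WT and V, Irf9, Isg15 and Gbp2 separate D1 from D5, and Gbp3 is high in the 5 VQ libraries only.

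All 4 sensors of foreign nucleic acid were lower in the tumours on average. Against WT 2 of them were called in VQ and 3 in tVk12653, where 32.4% and 28.2% of all genes were. Ddx58 (RIG-I), which detects RNA with a free 5′ triphosphate, had 159.5, 150.4 and 159 CPM (WT), 187, 161 and 174 (V), 44.9 and 39.1 (D1), 63.6 (D4), 43.5 and 52.9 (D5) and 24.7 and 27.9 (tVk12653). Neither WT nor V came near the tumour values, and within VQ D4 was highest. Ddx58 fell by 1.57 on the log2 scale in VQ (SE 0.17, adjusted p = 0.000303) and by 2.57 in tVk12653 (SE 0.21, adjusted p = 0.000141), and these calls held under all alternatives run. Ifih1 (MDA5), the sensor of long double-stranded RNA, had 10.6, 18.1 and 13.9 CPM (WT), 12.8, 11.03 and 8.44 (V), 5.11 and 3.37 (D1), 0.562 (D4), 4.505 and 2.81 (D5) and 0.462 and 1.09 (tVk12653). Its lowest level was in tVk12653 and D4, at about the level of the detection floor, and the log2 fold change was -2.30 ± 0.63 (adjusted p = 0.0193) in VQ and -4.22 ± 0.89 (adjusted p = 0.00792) in tVk12653. Zbp1, a sensor of Z-form nucleic acid that can start necroptosis, had 155, 80.7 and 127 CPM (WT), 253, 169.7 and 139 (V), 49.8 and 86.9 (D1), 45.2 (D4), 11.1 and 17.6 (D5) and 32.8 and 17.0 (tVk12653). D1 replicate 2 (86.9 CPM) lay just above the lowest WT library, and the other 6 tumour libraries lay below WT.

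Zbp1 was called lower in tVk12653, -2.27 ± 0.64 (adjusted p = 0.0267), and in VQ against V, -2.01 ± 0.53 (adjusted p = 0.0213), but not in VQ against WT, -1.37 ± 0.53 (adjusted p = 0.0713). Dhx58 (LGP2), a regulator of the other RNA sensors, had 9.86, 12.2 and 7.68 CPM (WT), 11.8, 14.2 and 9.09 (V), 5.11 and 6.41 (D1), 1.97 (D4), 2.38 and 0.256 (D5) and 1.62 and 4.35 (tVk12653), and gave -1.59 ± 0.60 (adjusted p = 0.0671) in VQ against WT and -1.84 ± 0.60 (adjusted p = 0.046) in VQ against V. In VQ against WT Ifih1 was not called without WT replicate 2 (adjusted p = 0.0617), and its call was also lost with the 2 arms fitted alone (adjusted p = 0.0698). In tVk12653 against WT Ifih1 was not called without tVk12653 replicate 1 (adjusted p = 0.0777). Zbp1 was not called without WT replicate 1 or 3 or tVk12653 replicate 1 or 2 (adjusted p = 0.0605 to 0.179). In VQ against V Dhx58 was not called without WT replicate 1, 2 or 3 or V replicate 1, 2 or 3 or line D4 or D5 (adjusted p = 0.0585 to 0.125). Ifih1 was not called without WT replicate 1, 2 or 3 or V replicate 1, 2 or 3 or tVk12653 replicate 1 or 2 (adjusted p = 0.0518 to 0.119). Zbp1 was not called without V replicate 1 (adjusted p = 0.0717).

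The ISG15 system attaches a ubiquitin-like protein to other proteins. Isg15, that modifier, had 6.34, 1.84 and 1.42 CPM (WT), 5.92, 8.18 and 1.95 (V), 2.69 and 12.3 (D1), 2.53 (D4), 0.530 and 0.511 (D5) and 0.231 and 0.362 (tVk12653). WT and V each spread over more than 4-fold, D1 and D4 lay within or above that range, and D5 and tVk12653 lay below every WT library. Neither VQ, 0.46 ± 0.97 (adjusted p = 0.742), nor tVk12653 passed against WT; in tVk12653 it had 2 counts in all, 9.14% of the WT level (95% interval 1.06 to 36.3) and 17.6% without WT replicate 1, an interval that covers counting error only, as do all intervals below. Usp18, the protease that removes Isg15 and restrains the receptor, was low in WT (2.82, 2.21 and 2.27 CPM) and V (4.44, 4.27 and 0.974) and had no count in tVk12653, which puts WT at least 2.73-fold higher against a floor of 3 counts per library. The call of Usp18 (adjusted p = 0.0326) was lost without any 1 of WT replicates 1, 2 and 3 and tVk12653 replicates 1 and 2 (adjusted p = 0.0612 to 0.151).

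Trim25, the ubiquitin ligase that activates Ddx58 and can transfer Isg15, went the other way. It had 163, 137 and 154 CPM (WT), 172, 196 and 162 (V), 147 and 194 (D1), 253 (D4), 398 and 379 (D5) and 207 and 368 (tVk12653). D5 and D4 and both tVk12653 libraries lay above WT, while D1 overlapped it. The log2 fold change in VQ against WT was 0.92 ± 0.30 (adjusted p = 0.0382), against 0.18 ± 0.20 (adjusted p = 0.48) in D1, 0.74 ± 0.24 (adjusted p = 0.0263) in D4 and 1.36 ± 0.20 (adjusted p = 6.12e-05) in D5. In VQ against WT Trim25 was not called without WT replicate 1, 2 or 3 or V replicate 1, 2 or 3 or line D5 (adjusted p = 0.0549 to 0.115), and its call was also lost with relative log expression factors (adjusted p = 0.0532) and with the 2 arms alone (adjusted p = 0.0806). In D4 against WT Trim25 was not called without WT replicate 2 (adjusted p = 0.0618).

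Effectors that bind or cut RNA were mostly scarce. Ifit1, which binds viral RNA lacking a methylated cap, had 1.76, 1.11 and 1.42 CPM (WT), 0.986, 1.42 and 3.57 (V), 1.88 and 3.26 (D1), 1.12 (D4), 0 (D5) and 0 and 1.09 (tVk12653). Both D5 libraries and 1 of the tVk12653 libraries had no count, but WT itself was at 1.11 to 1.76 CPM, so that the D5 level is only known to be at least 1.83-fold below WT. Ifit2, a relative that acts on RNA and promotes cell death, had 4.93, 15.5 and 4.55 CPM (WT), 1.97, 2.49 and 0.974 (V), 1.08 and 4.67 (D1), 0 (D4), 0.530 and 0.511 (D5) and 0.231 and 0.724 (tVk12653). WT replicate 2 was 15.5 CPM, about 3 times the other WT libraries, and it was also the library with the most neutrophil RNA. Against the floor, D4 lay at least 19.7-fold below WT, and tVk12653, with 3 counts, was at 5.33% of the WT level (95% interval 1.07 to 16.2). Without WT replicate 2 these became at least 11.2-fold and 8.97%.

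Oas3, an enzyme that makes the 2-5A messenger activating RNase L, had 8.45, 20.6 and 6.25 CPM (WT), 8.38, 15.3 and 3.25 (V), 4.31 and 4.45 (D1), 0 (D4), 2.65 and 2.30 (D5) and 1.39 and 1.81 (tVk12653). It was not detected in D4 at a depth of 7403425 counts, at least 28.0-fold below WT (at least 17.4-fold without WT replicate 2), and was low but present in D5 and tVk12653. Oas2 was at 0 in WT replicate 3 and D4 and between 0.231 and 7.83 CPM elsewhere, with no call in any comparison. Oasl1, a related protein without that enzyme activity, had no count in D5, at least 5.55-fold below WT, yet reached 11.2 CPM in tVk12653 replicate 2, the highest value of all 13 libraries; Oasl2 stood between 0 and 9.86 CPM. Reads of near-identical stretches in Oasl1 and Oasl2, in Ifit1 and Ifit3 and in Mx1 and Mx2 can be split between copies, a step on which the sources used here are silent.

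The abundant members of this class moved differently. Eif2ak2 (PKR), the kinase that halts translation on double-stranded RNA, had 64.1, 46.1 and 54.6 CPM (WT), 98.6, 88.6 and 63.0 (V), 64.1 and 62.9 (D1), 39.8 (D4), 57.0 and 40.6 (D5) and 13.2 and 18.1 (tVk12653). It fell in tVk12653, -1.82 ± 0.31 (adjusted p = 0.00314), under all alternatives run, and gave -0.06 ± 0.25 (adjusted p = 0.875) in VQ. Adar, the enzyme that deaminates adenosine in double-stranded RNA, was at 142 to 260.4 CPM in WT and V, 148 to 162 in D1 and D5, 92.6 in D4 and 93.1 to 98.0 in tVk12653, and was lower in D4, -0.83 ± 0.23 (adjusted p = 0.00966); the difference among lines had adjusted p = 0.0292. Isg20, a 3′ to 5′ RNA exonuclease and the most abundant of the class per kilobase, had 138, 123 and 114 CPM (WT), 145, 146 and 134 (V), 60.6 and 57.4 (D1), 88.1 (D4), 263 and 243 (D5) and 74.0 and 49.3 (tVk12653). The 2 D5 libraries were the highest of all 13 and the 2 D1 libraries were below WT, so that the D1 and D5 log2 fold changes had opposite signs, -1.08 ± 0.16 (adjusted p = 7.13e-05) and 1.02 ± 0.15 (adjusted p = 4.54e-05).

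In the class listed as membrane and capsid restriction, Samd9l, Rsad2 and Cmpk2 fell in VQ and in tVk12653, and Bst2 rose in VQ. The label is broad, and not every gene in it acts at a membrane or capsid. Samd9l, an antiviral and growth-restraining protein, had 32.0, 118 and 27.9 CPM (WT), 23.7, 23.1 and 19.1 (V), 14.5 and 2.72 (D1), 0.140 (D4), 2.38 and 2.56 (D5) and 0.925 and 0.362 (tVk12653). WT replicate 2 lay far above the other WT libraries, and all tumour libraries lay below the lowest WT and V library. It fell in VQ, -4.22 ± 0.93 (adjusted p = 0.00797), and in tVk12653, -6.38 ± 1.36 (adjusted p = 0.00891); D4 had 1 count, 0.250% of the WT level (95% interval 0.00632 to 1.40), and 0.472% without WT replicate 2. Rsad2 (viperin), which makes a chain-terminating nucleotide, had 7.39, 27.6 and 3.98 CPM (WT), 3.94, 4.98 and 1.62 (V), 3.50 and 0.652 (D1), 1.97 (D4), 0.530 and 0.256 (D5) and 0.231 and 0.362 (tVk12653). Here too WT replicate 2 was highest, the VQ log2 fold change was -3.28 ± 0.84 (adjusted p = 0.0151), and tVk12653, with 2 counts, was at 2.33% of the WT level (95% interval 0.278 to 8.61), or 5.13% without WT replicate 2. Cmpk2, a nucleotide kinase encoded beside Rsad2 on chromosome 12 (chr12:26469117-26479837 and chr12:26442743-26456452), had 12.3, 26.5 and 14.8 CPM (WT), 21.2, 18.9 and 13.6 (V), 2.96 and 0.978 (D1), 4.35 (D4), 1.06 and 3.32 (D5) and 0.462 and 0.362 (tVk12653).

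Cmpk2 thus lay below WT and V in every tumour library, with -2.69 ± 0.46 (adjusted p = 0.00255) in VQ and -2.70 ± 0.46 (adjusted p = 0.00325) against V; in tVk12653 its 3 counts were 2.42% of the WT level (95% interval 0.493 to 7.19). The Cmpk2 calls held under all alternatives run, and so did that of Samd9l in VQ against WT. In VQ against WT Rsad2 was not called without WT replicate 2 (adjusted p = 0.0773), and with the 2 arms alone adjusted p = 0.0606 for Rsad2. In tVk12653 against WT Samd9l was not called without tVk12653 replicate 1 or 2 (adjusted p = 0.0687 to 0.0813). Rsad2 was not called without tVk12653 replicate 1 or 2 (adjusted p = 0.0836 to 0.102). In VQ against V Samd9l was not called without WT replicate 1 or V replicate 1, 2 or 3 or tVk12653 replicate 1 or 2 or line D5 (adjusted p = 0.0533 to 0.0921). Mx1, a GTPase, had no count in tVk12653, at least 3.16-fold below WT, and between 0.853 and 5.42 CPM in WT and V. Its call (adjusted p = 0.0411) was lost without any 1 of WT replicates 1 and 2 and V replicates 1 and 2 (adjusted p = 0.0541 to 0.0903). The call was also lost without tVk12653 replicate 1 or 2.

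Bst2 (tetherin), which holds budding virus at the cell surface and is a known surface antigen of plasma cells, rose. It had 31.7, 31.3 and 42.6 CPM (WT), 54.7, 78.6 and 55.5 (V), 96.1 and 129 (D1), 86.8 (D4), 54.3 and 60.8 (D5) and 34.0 and 42.7 (tVk12653). All 5 VQ libraries lay above WT and D1 was highest, while tVk12653 overlapped WT. The log2 fold change was 1.37 ± 0.28 (adjusted p = 0.00548) in VQ, held under all alternatives run, and 0.12 ± 0.31 (adjusted p = 0.812) in tVk12653. Bst2 also marks plasmacytoid dendritic cells, whose 8 markers summed to 652 to 822 CPM in WT and 341 to 403, 523 and 322 to 351 in D1, D4 and D5, with Klk1 at 0 in the 3 lines. The list holds Bst2 itself, and most of its sum was Tcf4 (415 to 556 CPM in WT and 195 to 359.9 in VQ). Of 7 tested markers 3 were lower in VQ against WT, where 32.4% of all genes were called, and the 1 higher was Bst2. Siglech had 4.23, 26.5 and 2.27 CPM (WT) and 13.7 and 14.2 (D1), and Lair1 4.58, 24.3 and 9.10 (WT) and 22.6 and 35.0 (D1), each D1 library lying above at least 2 of the 3 WT libraries. Runx2 and Ccr9 went the other way. Runx2 had 73.9, 107 and 147 CPM (WT) and 4.58 and 0.760 (D1). Ccr9 had 27.5, 36.5 and 60.6 CPM (WT) and 0.538 and 0.326 (D1). The part of plasmacytoid dendritic cells in the level of Bst2 was not tested.

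Ifitm3, which blocks viral entry at endosomes, had 15.1, 25.8 and 11.1 CPM (WT), 22.2, 13.5 and 7.79 (V), 22.1 and 25.0 (D1), 3.79 (D4), 80.0 and 89.5 (D5) and 1.85 and 0.724 (tVk12653). D5 was highest, WT, V and D1 overlapped, and D4 and tVk12653 lay below every WT library. The log2 fold change was 2.30 ± 0.36 (adjusted p = 0.000116) in D5 and -2.17 ± 0.57 (adjusted p = 0.00859) in D4, and VQ as a whole gave 1.20 ± 0.88 (adjusted p = 0.316). Ifitm2, its neighbour on chromosome 7, had 2.11, 4.05 and 1.99 CPM (WT), 0.493, 0.711 and 0 (V), 5.65 and 3.58 (D1), 2.95 (D4), 0 and 0.511 (D5) and 3.93 and 3.62 (tVk12653). In D5 Ifitm3 was thus at its highest of all groups and Ifitm2 at 0 and 0.511 CPM, though the 2 genes are near copies and their counts are uncertain.

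The interferon-induced GTPases, which attack the membranes of intracellular parasites, all had positive log2 fold changes in VQ against WT. There 1 of 5 passed, where 32.4% of all genes did. Gbp3 had 66.2, 39.8 and 30.4 CPM (WT), 91.7, 44.8 and 56.5 (V), 312 and 525 (D1), 210.0 (D4), 240.1 and 242 (D5) and 61.0 and 27.9 (tVk12653). The lowest of the 5 VQ libraries was 210.0 CPM and the highest of WT and V 91.7, and tVk12653 overlapped WT. The log2 fold change was 2.80 ± 0.47 (adjusted p = 0.00225) against WT, 2.29 ± 0.46 (adjusted p = 0.0065) against V, 3.21 ± 0.42 (adjusted p = 0.000207) in D1, 2.21 ± 0.49 (adjusted p = 0.00572) in D4 and 2.41 ± 0.42 (adjusted p = 0.00089) in D5, and none of these calls was lost under an alternative. The difference in Gbp3 among the 3 lines did not pass (adjusted p = 0.195).

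Gbp2, its neighbour in the cluster on chromosome 3, had 24.3, 12.9 and 11.7 CPM (WT), 21.7, 20.3 and 22.4 (V), 23.1 and 75.6 (D1), 18.3 (D4), 4.24 and 4.60 (D5) and 3.47 and 1.45 (tVk12653). D1 replicate 2 alone exceeded WT, D4 lay within WT, and D5 and tVk12653 lay below. Gbp7 had 120.1, 34.3 and 22.5 CPM (WT), 80.4, 47.7 and 65.2 (V), 84.8 and 163 (D1), 218 (D4), 73.7 and 71.1 (D5) and 12.7 and 5.07 (tVk12653). It was below all WT and V libraries in tVk12653, -2.69 ± 0.79 (adjusted p = 0.031), and highest in D4, where the difference from WT did not pass, 1.90 ± 0.74 (adjusted p = 0.0718). Gbp7 was not called without WT replicate 1 or tVk12653 replicate 1 or 2 (adjusted p = 0.0726 to 0.195). The sequences of this family are alike, so that reads may be shared between its members. Igtp and Irgm1, of the family that guards parasite vacuoles, overlapped WT in VQ as a whole (0.14 ± 0.53 and 0.09 ± 0.50, neither called). D4 was lowest for both, at 16.0 and 11.5 CPM. In D4, with 1 library, both were called lower than WT. These calls were lost under 8 (Igtp) and 2 (Irgm1) of 20 alternatives.

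Among the genes of ADP-ribosylation, Parp14, an ADP-ribosyltransferase known as a cofactor of Stat6, had 133, 128 and 144 CPM (WT), 228, 226 and 154 (V), 68.9 and 94.9 (D1), 15.7 (D4), 75.3 and 50.9 (D5) and 16.6 and 19.6 (tVk12653). All tumour libraries lay below WT, with D4 and tVk12653 lowest; the log2 fold change was -2.90 ± 0.61 (adjusted p = 0.0084) in tVk12653, -1.81 ± 0.49 (adjusted p = 0.0225) in VQ against V and -1.21 ± 0.48 (adjusted p = 0.0791) in VQ against WT, which did not pass. In tVk12653 against WT Parp14 was not called without tVk12653 replicate 1 or 2 (adjusted p = 0.0638 to 0.0726), and in VQ against V Parp14 was not called without V replicate 1 or 2 (adjusted p = 0.0622 to 0.0655). Parp9 and its partner Dtx3l, a ubiquitin ligase, lie on opposite strands and share 458 bases of exon, and the strand setting of the counting is unknown here. Dtx3l had 77.1, 102 and 107 CPM (WT), 125, 126 and 111 (V), 140.5 and 164 (D1), 55.6 (D4), 148 and 124 (D5) and 56.6 and 69.2 (tVk12653). D1 and D5 lay above WT, as did all 3 V libraries, with D5 replicate 2 inside the range of V, and D4 and tVk12653 lay below WT. Parp9 ranged from 21.7 to 56.2 CPM over the 13 libraries. In D4, with 1 library, Parp9 was called lower than WT, a call lost under 7 of 20 alternatives.

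Of the remaining members, Ifi27, a mitochondrial and nuclear-envelope protein, had 21.5, 14.4 and 19.6 CPM (WT), 45.4, 44.1 and 26.6 (V), 4.58 and 4.78 (D1), 1.40 (D4), 0.795 and 0.511 (D5) and 0.462 and 0.362 (tVk12653). No tumour library exceeded 4.78 CPM, no WT or V library was under 14.4, and D5 and tVk12653 were lowest. It fell in VQ against WT, -2.91 ± 0.59 (adjusted p = 0.00546), and against V, -3.99 ± 0.61 (adjusted p = 0.00207), and stood at 2.27% of the WT level (95% interval 0.464 to 6.75) in tVk12653; these calls held under all alternatives run. Sp100, a scaffold of nuclear bodies that restrict DNA viruses, had 139, 202 and 168 CPM (WT), 181, 164 and 145 (V), 54.6 and 58.3 (D1), 18.5 (D4), 38.2 and 41.7 (D5) and 33.1 and 36.9 (tVk12653). No tumour library exceeded 58.3 CPM, against at least 139 in WT and 145 in V, and Sp100 fell in VQ, -2.07 ± 0.36 (adjusted p = 0.00257), and in tVk12653, -2.28 ± 0.42 (adjusted p = 0.00467), under all alternatives run. Xaf1, which promotes apoptosis by binding Xiap, was at 12.0, 8.85 and 7.39 CPM in WT, 11.3 and 9.56 in D1 and 0 and 0.724 in tVk12653, the last being 3.05% of the WT level (95% interval 0.363 to 11.4); Xaf1 was not called without tVk12653 replicate 1 (adjusted p = 0.0952).

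Ifi44, a GTP-binding protein, reached 10 counts only in VQ libraries. It thus met the rule for the set only through the group where it was high, and its calls are no separate support for a rise. It had 2.11, 1.11 and 0.853 CPM (WT), 0 (V), 8.88 and 15.4 (D1), 0.702 (D4), 3.44 and 3.32 (D5) and 0 (tVk12653). D1 and D5 lay above WT, while V and tVk12653 had no count, so that against a floor of 3 counts per library D1 was at least 10.4-fold and D5 at least 2.88-fold higher than V. The call in VQ against V (adjusted p = 0.0271) was lost without any 1 of the 3 V libraries (adjusted p = 0.062 to 0.0734). Lgals3bp, a secreted glycoprotein, had 119.7, 64.5 and 87.0 CPM (WT), 231, 155 and 119 (V), 266 and 295 (D1), 36.0 (D4), 276 and 203 (D5) and 219 and 169.5 (tVk12653). D4 lay below all other libraries, and D1, D5 and tVk12653 lay above WT; VQ as a whole gave 1.12 ± 0.61 (adjusted p = 0.185).

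The ISRE was found both in members that fell and in members that rose. Of the 34 members with a RefSeq promoter 17 held one. Among these 34, 4 of the 9 that fell in VQ against WT held an ISRE (Stat2, Ddx58, Ifih1 and Rsad2), and so did 2 of the 3 that rose (Bst2 and Gbp3). In tVk12653, 6 of the 10 that fell held one (Stat2, Ddx58, Ifih1, Eif2ak2, Rsad2 and Gbp7). Irf7, Cmpk2, Samd9l, Sp100, Irf1 and Trim25 had none in their windows, which says only that these letters are not there.

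The 3 VQ lines, taken one by one against WT with libraries as replicates, differed in the number of members that moved. In D1 9 of 42 tested members were higher and 12 lower, where 51.3% of 12835 genes passed (23.8% higher and 27.5% lower). In D4 3 were higher and 23 lower, with 41.0% of genes passing (19.6% and 21.4%), and in D5 7 were higher and 23 lower, with 58.6% (26.8% and 31.8%). The median log2 fold change of the members was -0.12 in D1, -1.38 in D4 and -1.82 in D5 (-1.77 with genes at 0 set to their bound), beside -0.05, -0.04 and -0.16 over all genes. These 3 comparisons share the WT libraries. Rtp4, which did not meet the rule for the set, was among the 42. It reached 10 counts in WT replicate 2 alone, so its lower calls in D4 and D5 are no separate support for a fall. With D4 as 1 library, its spread was taken to be that of the other groups.

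The members higher in D1 were Irf9 (0.64 ± 0.20), Bst2 (1.67 ± 0.20), Gbp2 (1.63 ± 0.43), Gbp3 (3.21 ± 0.42), Igtp (0.88 ± 0.33), Dtx3l (0.67 ± 0.16), Ifi35 (0.74 ± 0.27) and Lgals3bp (1.63 ± 0.29), in log2 fold change ± SE, and Ifi44, 3.17 ± 0.59 (adjusted p = 0.000988). As said above, Ifi44 met the rule for the set through VQ libraries alone. Those lower were Irf7 (-1.51 ± 0.34), Irf1 (-0.64 ± 0.19), Stat2 (-0.82 ± 0.19), Ddx58 (-1.90 ± 0.14), Ifih1 (-1.77 ± 0.43), Isg20 (-1.08 ± 0.16), Rsad2 (-2.79 ± 0.89), Cmpk2 (-3.34 ± 0.57), Samd9l (-2.92 ± 0.80), Parp14 (-0.71 ± 0.20), Ifi27 (-1.97 ± 0.33) and Sp100 (-1.58 ± 0.16). Replicate 2 of D1 held more Gbp2 (75.6 against 23.1 CPM) and Isg15 (12.3 against 2.69 CPM) than replicate 1. Without replicate 2 of D1 5 members were higher. Gbp2 was not called without D1 replicate 2 (adjusted p = 0.35). Ifi35 was not called without WT replicate 1 or 3 or D1 replicate 2 (adjusted p = 0.0813 to 0.39). Igtp was not called without WT replicate 2 or 3 or V replicate 2 or D1 replicate 2 or D5 replicate 1 or 2 or tVk12653 replicate 1 or 2 (adjusted p = 0.0511 to 0.379). Ifih1 was not called without D1 replicate 2 (adjusted p = 0.0624). Samd9l was not called without D1 replicate 2 (adjusted p = 0.0759). Rsad2 was not called without WT replicate 2 or D1 replicate 2 (adjusted p = 0.125 to 0.173). Irf1 was not called without WT replicate 3 or D1 replicate 1 or 2 (adjusted p = 0.0527 to 0.0749). Parp14 was not called without D1 replicate 1 (adjusted p = 0.107). Irf9 is given above, and the other 12 calls held when single libraries were left out.

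In D5 the members higher than WT were Trim25 (1.36 ± 0.20), Isg20 (1.02 ± 0.15), Bst2 (0.70 ± 0.21), Ifitm3 (2.30 ± 0.36), Gbp3 (2.41 ± 0.42), Dtx3l (0.51 ± 0.16) and Lgals3bp (1.40 ± 0.29). Among the 23 that were lower were all 4 transcription factors, Irf7 (-3.56 ± 0.42), Irf9 (-1.47 ± 0.23), Irf1 (-2.62 ± 0.23) and Stat2 (-1.78 ± 0.21), all 4 sensors, Ddx58 (-1.70 ± 0.14), Ifih1 (-1.95 ± 0.45), Dhx58 (-2.88 ± 0.65) and Zbp1 (-3.07 ± 0.46), and Ifit2, Oas3, Cmpk2, Samd9l, Gbp2, Parp14, Ifi27 and Sp100. Ifit1, Oasl1, Usp18, Mx1, Rsad2, Ifitm2 and Rtp4 were also called lower but had at most 3 counts over the 2 D5 libraries. In D4 the members higher were Trim25, Bst2 and Gbp3, and the 23 lower included all 4 transcription factors, Irf7 (-1.49 ± 0.43), Irf9 (-0.96 ± 0.27), Irf1 (-1.18 ± 0.26) and Stat2 (-2.01 ± 0.27), as well as Ifih1 (-4.58 ± 0.73), Parp14 (-3.10 ± 0.32), Ifi27 (-3.69 ± 0.51), Sp100 (-3.19 ± 0.24), Xaf1 (-2.14 ± 0.72), Ifitm3 (-2.17 ± 0.57) and Lgals3bp (-1.33 ± 0.41). The others lower in D4 were Ddx58, Dhx58, Ifit2, Oas3, Adar, Cmpk2, Samd9l, Igtp, Irgm1, Parp9, Dtx3l and Rtp4. Of these Ifit2, Oas3 and Rtp4 had no count in D4 and Samd9l had 1. In D5 against WT Bst2 was not called without D5 replicate 2 (adjusted p = 0.0761). Dtx3l was not called without WT replicate 1 or D5 replicate 1 (adjusted p = 0.0552 to 0.139). Gbp2 was not called without D5 replicate 1 or 2 (adjusted p = 0.061 to 0.0694). Oas3 was not called without WT replicate 2 or D5 replicate 1 or 2 (adjusted p = 0.054 to 0.076). Ifit1 was not called without D5 replicate 1 or 2 (adjusted p = 0.0795 to 0.084). Ifitm2 was not called without D5 replicate 1 (adjusted p = 0.109). Mx1 was not called without WT replicate 1 or 2 or D5 replicate 1 (adjusted p = 0.0661 to 0.191). Rtp4 was not called without D5 replicate 2 (adjusted p = 0.116). Usp18 was not called without D5 replicate 1 (adjusted p = 0.122). In D4 against WT Xaf1 was not called without WT replicate 1 (adjusted p = 0.0569).

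**Figure D3:**
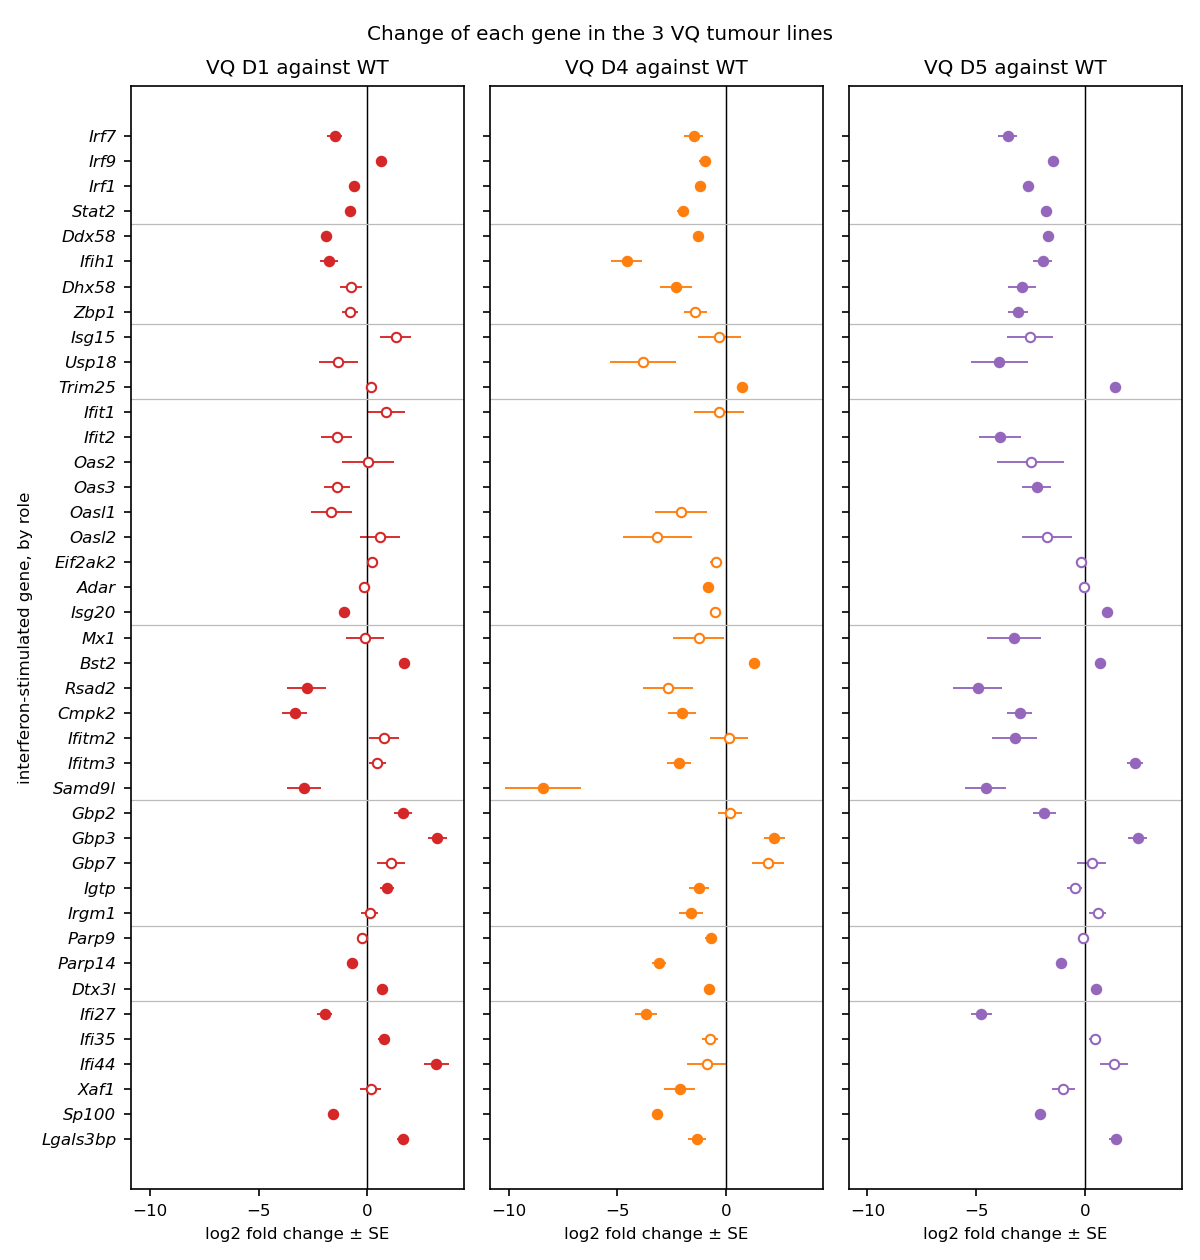
Log2 fold change against WT (horizontal axis, bars are SE) of each member (vertical axis, by role) in D1, D4 and D5; filled points passed the test, and members with no count in one of the compared groups are left out. Samd9l, Ifi27, Sp100 and Stat2 lie left of 0 in all 3 panels and Gbp3 and Bst2 right of 0, while Irf9, Isg20 and Lgals3bp change side between panels.

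Tested directly, 29 of 42 members differed among the 3 lines, where 51.4% of all genes did. Between D1 and D5, which have 2 libraries each, 16 members were higher in D1 and 3 lower, where 41.7% of genes passed (21.7% lower in D1), and the median log2 difference was 1.25 over the members (1.06 with genes at 0 set to their bound) and 0.05 over all genes. Without D5 replicate 1 or 2 the count higher in D1 was 9. All 4 transcription factors were higher in D1, Irf7 (2.04 ± 0.46), Irf9 (2.11 ± 0.24), Irf1 (1.99 ± 0.23) and Stat2 (0.96 ± 0.22), and with them Gbp2, 3.50 ± 0.56 (adjusted p = 0.00029), Zbp1, 2.26 ± 0.48 (adjusted p = 0.00381), Ifi27, 2.79 ± 0.53 (adjusted p = 0.000721), and Bst2, 0.97 ± 0.22 (adjusted p = 0.00255). Isg20, -2.10 ± 0.17 (adjusted p = 4.52e-07), Ifitm3, -1.84 ± 0.39 (adjusted p = 0.00189), and Trim25, -1.18 ± 0.22 (adjusted p = 0.000753), were higher in D5. These 11 calls held under all alternatives run. Isg15 was at 2.69 and 12.3 CPM in D1 and at 0.530 and 0.511 in D5, a difference of 3.82 ± 1.02 (adjusted p = 0.00782); Isg15 was not called without D1 replicate 2 or D5 replicate 1 or 2 (adjusted p = 0.058 to 0.157). The lines also differ in the RNA of other cells given above, D1 having 414 to 1337 CPM of neutrophil markers and 714 to 830.3 of monocyte and macrophage markers (mostly Ly6c2) against 93.3 to 149.5 and 24.6 to 48.8 in D5. Of 15 tested neutrophil markers 10, and of 12 monocyte and macrophage markers 5, were higher in D1 than in D5 and none lower, and the part of this in the difference was not tested.

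In V against WT, in the fit of all arms, no member passed, as no gene of 11933 did (0% of genes). An unadjusted p under 0.05 was found for 5 of 41 members (Bst2, Eif2ak2, Ifitm2, Ifi44 and Rsad2) and for 628 of 11933 genes. DESeq2 called 45 genes and 0 members, also with 5 members under 0.05 unadjusted. The lack of calls does not show that V and WT are alike. The median log2 fold change was 0.35 over the members, 30 of 41 being positive, and 0.01 over all genes, 6116 of 11933 being positive. WT and V libraries with the same number deviated together, so the pair also served as a block, with only V and WT fitted. The block was chosen from these same data, so the calls it gave are not separate evidence of a difference. There 5 members were higher and 2 lower, where 4.56% of genes passed (479 of 10510). Higher were Irf9 (0.88 ± 0.16, adjusted p = 0.00861), Lgals3bp (0.89 ± 0.15, adjusted p = 0.00724), Ifi27 (1.04 ± 0.24, adjusted p = 0.0281), Bst2 (0.83 ± 0.19, adjusted p = 0.0289) and Igtp (0.84 ± 0.20, adjusted p = 0.0372), and lower Ifit2 (-2.14 ± 0.51, adjusted p = 0.0352) and Rsad2 (-1.71 ± 0.44, adjusted p = 0.0498). With the block in all 13 libraries Irf9 (adjusted p = 0.0314) and Bst2 (adjusted p = 0.0481) were called, and the other 5 were not: the adjusted p was 0.0585 for Lgals3bp, 0.0991 for Ifi27, 0.273 for Igtp, 0.138 for Ifit2 and 0.252 for Rsad2. For Irf9, Ifi27 and Bst2 all 3 V libraries lay above the highest WT library, while for Lgals3bp the lowest V library (119.1 CPM) lay just under the highest WT library (119.7 CPM). Beside these, erythroid markers summed to 116 to 741 CPM in WT and 11.8 to 31.8 in V, and Ddx3y was detected in WT and not in V; their part in the result was not tested. Without pair 2, which holds the WT library with the most neutrophil RNA, 1 member was higher and none lower; without pair 1 the counts were 6 and 2, and without pair 3 they were 8 and 1.

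The rest of the pathway was read from lists of genes outside the 44. Of 20 interferon genes (Ifna, Ifnb and relatives) 8 were in the table, 6 of them had no count in any library, and the highest count of any was 1. The receptor subunits were present in all libraries. Ifnar1 had 139.8, 118 and 109.7 CPM (WT), 113, 117 and 101 (V), 88.5 and 83.3 (D1), 122 (D4), 74.2 and 78.5 (D5) and 146 and 143 (tVk12653), and Ifnar2 138, 94.0 and 95.2 CPM (WT), 133, 133 and 141 (V), 133 and 99.8 (D1), 219.8 (D4), 50.3 and 57.0 (D5) and 236 and 199 (tVk12653). Ifnar1 did not pass in VQ, -0.33 ± 0.18 (adjusted p = 0.184), or tVk12653, 0.24 ± 0.20 (adjusted p = 0.412), and D5 was lowest for both subunits. Of the 9 receptor and Janus kinase genes 2 were lower and none higher in VQ against WT, and likewise in tVk12653, which is 22.2% beside 32.4% and 28.2% of all genes. Ifngr1, which binds interferon-γ, fell in both (-1.40 ± 0.32 and -1.89 ± 0.38).

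The kinases differed by tumour line. Jak1 had 199.6, 309 and 266 CPM (WT), 166, 192 and 242 (V), 124 and 128 (D1), 22.1 (D4), 255 and 237 (D5) and 1.62 and 0 (tVk12653). In the 2 tVk12653 libraries it was absent but for a few reads while all WT, V, D1 and D5 libraries had at least 124 CPM, and D4 lay between; the log2 fold change was -8.05 ± 1.24 (adjusted p = 0.00212) in tVk12653 and -3.55 ± 0.37 (adjusted p = 1.72e-05) in D4. Tyk2 had 126, 128 and 137 CPM (WT), 147, 117 and 127 (V), 140.5 and 141 (D1), 53.5 (D4), 26.2 and 23.5 (D5) and 140.3 and 89.8 (tVk12653), and fell in D5, -2.39 ± 0.19 (adjusted p = 1.61e-07), and D4, -1.29 ± 0.22 (adjusted p = 0.000457). Jak2, which serves the interferon-γ receptor, was 35.5 to 36.6 CPM in D5 and 105 to 277 in all others, -1.76 ± 0.16 (adjusted p = 6.09e-07) in D5.

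**Figure D4:**
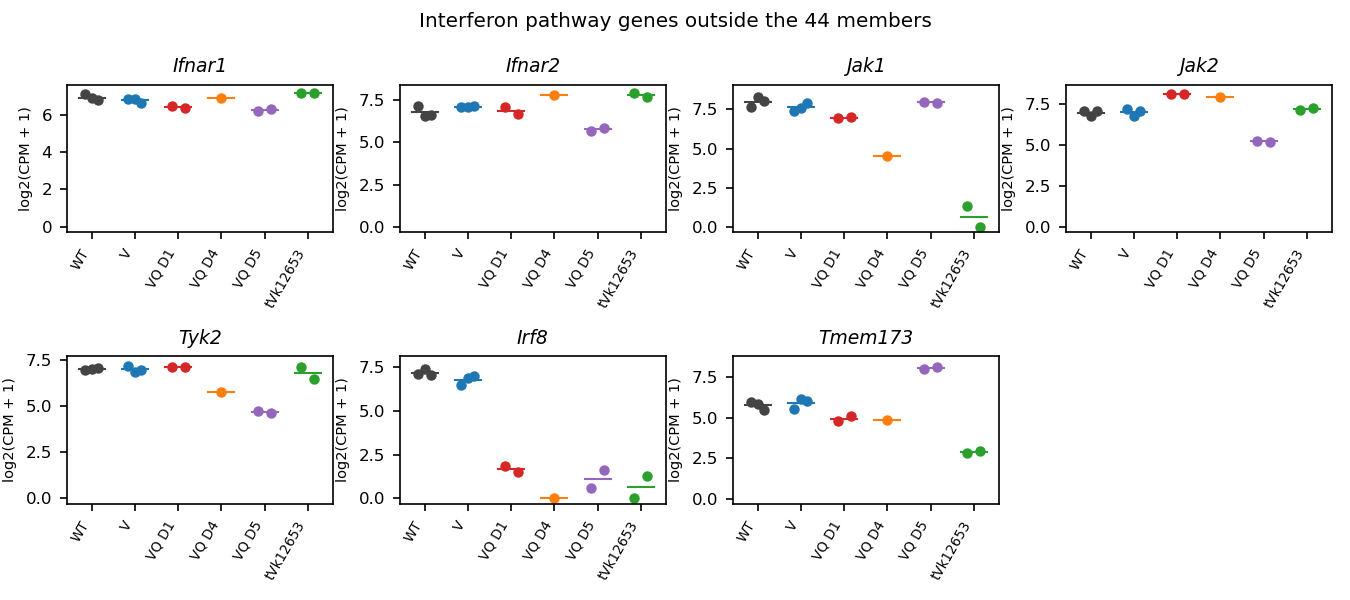
Levels of 7 pathway genes outside the 44, as log2(CPM + 1) (vertical axes), in each library of the 6 groups (horizontal axes); points are libraries and bars group means. Ifnar1 lies between 74.2 and 146 CPM in all libraries, Jak1 is near 0 in tVk12653, Tyk2 and Jak2 are low in D5, and Irf8 is near 0 in all tumours.

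Of 5 other STAT and IRF factors 3 were lower and 1 (Irf5) higher in VQ against WT, and 2 were lower in tVk12653, where 32.4% and 28.2% of all genes were called. Irf8, a factor of B cells and myeloid cells, had 140.1, 167 and 132 CPM (WT), 87.8, 117 and 128 (V), 2.69 and 1.85 (D1), 0 (D4), 0.530 and 2.04 (D5) and 0 and 1.45 (tVk12653), and fell in VQ, -6.81 ± 0.79 (adjusted p = 0.000439). Irf2, which competes with Irf1 for DNA, fell in VQ, -1.79 ± 0.53 (adjusted p = 0.0285), and tVk12653, -2.51 ± 0.65 (adjusted p = 0.0187). Of 9 negative regulators 4 were lower and 1 higher in VQ (55.6% beside the 32.4%), among them Ptpn6, a phosphatase of the Janus kinases (-2.57 ± 0.50 (adjusted p = 0.00465)), and Socs3, an inhibitor of cytokine receptors (-3.39 ± 0.73 (adjusted p = 0.00707)). Of 16 tested sensors and adaptors 2 were lower and 2 higher in VQ, and 3 were lower in tVk12653, both under the shares of all genes called (32.4% and 28.2%). Tmem173 (STING), the adaptor of DNA sensing, had 61.6, 55.7 and 42.6 CPM (WT), 44.9, 69.0 and 63.9 (V), 26.9 and 32.8 (D1), 27.2 (D4), 253 and 278 (D5) and 6.01 and 6.52 (tVk12653); D5 was highest, 2.32 ± 0.18 (adjusted p = 1.53e-07), and tVk12653 lowest, -3.09 ± 1.00 (adjusted p = 0.0445).

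Further interferon-stimulated genes outside the list moved in both directions. Of 43 tested 11 were lower and 4 higher in VQ against WT, or 34.9% called where 32.4% of all genes were. In tVk12653 18 were lower and 1 higher, or 44.2% against 28.2%. Between D1 and D5 22 of 45 were higher in D1 and 5 in D5, where 41.7% of all genes were called. Gbp5, a guanylate-binding protein of the inflammasome, had 57.0, 31.3 and 38.4 CPM (WT), 62.6, 58.0 and 67.8 (V), 152 and 422 (D1), 46.1 (D4), 9.01 and 10.7 (D5) and 13.6 and 16.3 (tVk12653), and Gbp4 66.2, 27.6 and 41.5 CPM (WT), 69.0, 60.1 and 56.5 (V), 58.4 and 81.7 (D1), 4.92 (D4), 1.06 and 0.767 (D5) and 12.0 and 7.24 (tVk12653). D1 was the highest tumour for both and D5 the lowest, 4.87 ± 0.49 (adjusted p = 3.08e-05) and 6.23 ± 0.51 (adjusted p = 9.01e-07) between them. Slfn2, a regulator of lymphocyte quiescence, had 37.7, 115 and 39.2 CPM (WT), 53.7, 79.3 and 36.0 (V), 14.0 and 7.82 (D1), 1.40 (D4), 0.530 and 2.04 (D5) and 0.693 and 0.724 (tVk12653), below WT and V in every tumour library, -3.85 ± 0.80 (adjusted p = 0.00638) in VQ. Ifi204, a DNA-binding protein, was the highest-changing of the 4 that rose, with 5.99, 8.48 and 2.27 CPM (WT), 17.8, 4.98 and 3.25 (V), 48.2 and 52.6 (D1), 33.3 (D4), 73.7 and 77.7 (D5) and 5.09 and 2.54 (tVk12653) and 3.34 ± 0.70 (adjusted p = 0.00629). B2m, the light chain of MHC class I, had 3674, 2440.2 and 3092 CPM (WT), 5058, 4170.0 and 3935 (V), 2283 and 2476 (D1), 1204 (D4), 480.4 and 416 (D5) and 5009 and 6280.2 (tVk12653); D5 was lowest, -2.78 ± 0.20 (adjusted p = 6.05e-08), while tVk12653 lay above WT without passing, 0.88 ± 0.51 (adjusted p = 0.227).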

How the data were processed

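RNA was sequenced from 13 libraries of sorted plasma cells in 6 groups, prepared with RNeasy Micro and SMARTer Stranded Total RNA-Seq (Pico) kits, per the labels' protocols. The authors deposited a table of raw counts per gene symbol; STAR 2.6.1d and the GRCm38.p6 build are named in the submitters' processing notes, while no tool, strand setting or rule for shared reads is given for the counting step in the sources used here. Total counts of 2096815 to 8512281 per library limit the precision of scarce genes. Libraries of a group differed by more than sampling noise (chi-square per degree of freedom 5.23 to 15.6) and none was merged as a duplicate.

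Counts were tested with edgeR 4.0.16 (robust quasi-likelihood test, TMM factors, filterByExpr with a minimum count of 10 and a minimum total of 15, R 4.3.3). P-values were adjusted by Benjamini-Hochberg across every gene tested, with a threshold of 0.05. Arms (WT, V, VQ, tVk12653) were compared over 11 units, in which the counts of the recipients of a VQ line were summed (11933 genes, 41 members tested), and lines over 13 libraries with 1 mean per group (12835 genes, 42 members tested, Rtp4 included). SE is the log2 fold change divided by the root of its F statistic. A gene with no count in a whole group is given as a bound against 3 counts per library; a group with 1 to 3 counts is given as a share of the reference level with an exact 95% interval. Genes were placed by GENCODE M21, in which exons of 18 members overlap those of another gene. The script was checked on simulated data.

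All 44 members may be named, with all called members; in each role the most abundant member is described. The members and the gene lists were chosen with earlier results of these data known, and no list was tested as a set; 1 gene in each of 2 lists is not reported here. WT and V libraries of the same number correlated in their deviations from the group means (r = 0.125 to 0.190). Different numbers gave -0.144 to -0.038, in part because deviations from a group mean sum to 0. The pairing was taken from the data, since the labels do not say what a number marks. Between other groups the same number gave at most 0.0549 (V and tVk12653). Different numbers reached 0.133 there (WT replicate 2 and D1 replicate 1). Alternatives were relative log expression factors, other filters (none, 10 counts in 2 libraries, a minimum count of 30), DESeq2 1.42.0, leaving out the 20 most abundant genes, the 2 arms alone, 13 libraries in place of 11 units, the replicate block, and leaving out libraries or lines.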

Additional observations from a re-analysis of the deposited data

Results flagged for a closer look

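The change from WT differed between the VQ lines D1 and D5 for 19 members, tested as the direct difference of D1 and D5 (edgeR, adjusted over 12835 genes, log2, D1 minus D5). Of all genes 41.7% were called in the same test (21.7% lower in D1). The 19 of 42 members tested is thus near the background and cannot be read as particular to the members. Among the 19, more were higher in D1 than lower. In 16 the value was higher in D1: Ifitm2 (3.98), Isg15 (3.82), Gbp2 (3.50), Ifi27 (2.79), Zbp1 (2.26), Dhx58 (2.13), Irf9 (2.11), Irf7 (2.04), Irf1 (1.99), Ifi44 (1.85), Igtp (1.35), Bst2 (0.97), Stat2 (0.96) and Sp100 (0.50), with Ifit1 (6.41) and Oasl1 (5.44). The last 2 had no count in D5, so that their fitted values depend on the prior count; against a floor of 3 counts per library D1 was at least 3.29-fold and at least 1.87-fold higher, and without D1 replicate 1 the bound for Oasl1 was 0.974, which gives no direction. Ifitm2 had 2 counts in D5, 6.23% of the D1 level (95% interval 0.735 to 23.6). In 3 members the value was higher in D5: Trim25 (-1.18), Ifitm3 (-1.84) and Isg20 (-2.10).

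Of the 19 calls 11 held under every alternative run, and 8 were lost when some single library was left out. Dhx58 was not called without D1 replicate 2 or D5 replicate 2 (adjusted p = 0.0936 to 0.178). Ifi44 was not called without D1 replicate 2 or D5 replicate 1 or 2 (adjusted p = 0.118 to 0.247). Ifit1 was not called without D5 replicate 1 or 2 (adjusted p = 0.0548 to 0.0573). Ifitm2 was not called without D5 replicate 1 (adjusted p = 0.0591). Igtp was not called without D1 replicate 2 or D5 replicate 1 or 2 (adjusted p = 0.0568 to 0.105). Isg15 was not called without D1 replicate 2 or D5 replicate 1 or 2 (adjusted p = 0.058 to 0.157). Oasl1 was not called without WT replicate 2 or V replicate 1, 2 or 3 or D1 replicate 1 or D4 replicate 1 or D5 replicate 1 or 2 (adjusted p = 0.0503 to 0.158). Sp100 was not called without D1 replicate 1 or 2 or D5 replicate 1 or 2 (adjusted p = 0.0718 to 0.17). Each line is 1 tumour, so that the difference is between these 2 tumours and not between kinds of tumour.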

How the results depend on the processing

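Of 138 called values of single members, 83 kept their call and direction under all alternatives run and 0 changed direction; pathway genes outside the 44 were not refitted. The scaling factors of edgeR's relative log expression method moved the median of all genes by less than 0.1 in every comparison. The number of members called changed with the design of the fit. The shares of all genes called in these refits are not given beside the counts below. A change in a count thus cannot be read as particular to the members. With 13 libraries and 1 mean per group, lower members were 19 in VQ against WT, 29 in tVk12653 against WT and 25 in VQ against V, and 2 were higher in tVk12653. With the 2 arms fitted alone, VQ against WT had 5 lower, tVk12653 against WT 24 lower and 2 higher, and VQ against V 5 lower and 1 higher. In tVk12653 against WT 1 member was higher with DESeq2 and with no filter on low counts, and in VQ against V 1 was higher with a minimum count of 30 and without the 20 most abundant genes.

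With the replicate number as a block, V and WT alone gave 5 higher and 2 lower, and leaving out 1 pair gave 1 to 8 higher and 0 to 2 lower (6 and 2 without pair 1, 1 and 0 without pair 2, 8 and 1 without pair 3). In 13 libraries with the replicate block V against WT had 2 higher, VQ against WT 24 lower, tVk12653 against WT 31 lower and 2 higher, and VQ against V 31 lower and 4 higher; the numbers do not pair those other groups. The block changed no other count by over 1.5 times.

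Leaving out 1 library or line gave 2 to 7 higher and 7 to 16 lower in VQ against WT, 0 to 1 higher and 6 to 22 lower in tVk12653 against WT, 1 to 3 higher and 5 to 16 lower in VQ against V, 5 to 10 higher in D1 against WT and 9 to 17 higher in D1 against D5. Results for D4 rest on 1 library. Members under the floor of 3 counts (0.326 to 1.48 CPM) cannot be called absent.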
